A study of Mus musculus with 15 samples.

Results

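Gli3 and 9 other genes of the Hedgehog pathway (Gli1, Gli2, Ptch1, Smo, Sufu, Gas1, Cdon, Boc and Gpr161) were followed through sorted cells of the mouse embryonic cortex. These 10 genes were taken by symbol from a count table of 55367 genes. All 10 symbols were in the table, 9 had at least 1 count, and 5 (Gli3, Smo, Gas1, Cdon and Boc) passed the filter on low counts that precedes the test. The genes were selected on the measured difference between the sort groups: Gli3 was among those called higher in AnnexinV-positive cells, and its pathway was then taken whole. The values of the 10 genes in that comparison are therefore a description, without p-values, and the call of Gli3 is stated only as what led to the choice.

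The 12 bulk RNA libraries came from the medial cortex of C57BL/6 embryos at E11.5, and no genotype, transgene or treatment beyond the strain is named. Of these, 6 libraries were made from AnnexinV-positive PI-negative cells and 6 from cells that took up neither stain (double-negative). Annexin V binds phosphatidylserine, a lipid that dying cells expose on their surface, and PI (propidium iodide) stains cells that have lost an intact membrane. Whether the 6 libraries of a group stem from different embryos or litters is not stated, so the p-values speak to variation among libraries, some of which could be technical. A further 3 samples of the series carry no sort label and were not analysed here.

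Hedgehog ligands bind the receptor Ptch1, which then stops inhibiting the membrane protein Smo, and Smo acts at the primary cilium to change how the zinc finger proteins Gli2 and Gli3 are processed. Without ligand, Gli3 is cut to a repressor of target genes. In the dorsal telencephalon of mice, Gli3 works mostly as this repressor, and embryos that lack it fail to form a normal hippocampus and cortical hem. Gas1, Cdon and Boc are coreceptors at the cell surface, Sufu holds Gli proteins in check in the cytoplasm, and Gpr161 is a ciliary receptor that favours Gli3 repressor formation. Gli1 and Ptch1 are themselves transcribed when the pathway is active.

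Total counts ran from 190694 to 444412 in AnnexinV-positive libraries and from 88193 to 329813 in double-negative libraries. Counts of rRNA genes made up 21.5% to 43.6% of these totals. After scaling, 1 count was worth 2.41 to 5.74 CPM (counts scaled to a fixed library size) in AnnexinV-positive libraries and 3.60 to 15.4 CPM in double-negative libraries, so a low gene could be missed more easily in the double-negative ones. Lhx2 and Emx1, which mark the dorsal telencephalon, had counts in all 12 libraries. Emx2, of the same region, had counts in 10 libraries and 0 counts in double-negative libraries 2 and 3. Emx1 rested on 2, 3, 2, 1 and 3 counts in AnnexinV-positive libraries 1, 3, 4, 5 and 6. Lhx2 stood at 86.1 to 183 CPM in AnnexinV-positive libraries and at 30.7 to 142 CPM in double-negative libraries, and Emx1 at 2.41 to 67.2 CPM in AnnexinV-positive libraries and at 21.6 to 146 CPM in double-negative libraries. In double-negative libraries 1 to 3, haemoglobin genes made up 11.998% to 30.8% of all counts, and none of the other 9 libraries exceeded 0.00964%. Mesenchyme markers (10 genes) summed to 534, 781 and 953 CPM in AnnexinV-positive libraries 1, 3 and 6, to 28.4 to 50.6 CPM in AnnexinV-positive libraries 2, 4 and 5, and to at most 99.4 CPM in double-negative libraries. Fold changes of the 5 genes past the filter and counts of called markers are also given without these libraries.

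Among the transcription factors, Gli3 was higher in every AnnexinV-positive library than in any double-negative library. Gli3 stood at 229.6, 248, 193, 281, 369 and 299 CPM in AnnexinV-positive libraries 1 to 6, against 99.99, 27.2, 46.1, 92.3, 64.8 and 119 CPM in double-negative libraries 1 to 6. The lowest AnnexinV-positive value, in library 3, lay above the highest double-negative value, in library 6. The AnnexinV-positive mean was 269.98 ± 61.2 CPM and the double-negative mean 74.8 ± 34.8 CPM (SD, n = 6 each), which is a ratio of 3.61 and a fitted log2 fold change of 1.80 (SE 0.38). AnnexinV-positive libraries held 530 Gli3 counts in all and double-negative libraries 86. In bulk libraries, a difference in the number of cells that carry a transcript cannot be told apart from a difference in transcript per cell.

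The plot of the members by library shows the gap for Gli3 and the overlap for the other members.

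**Figure D1:**
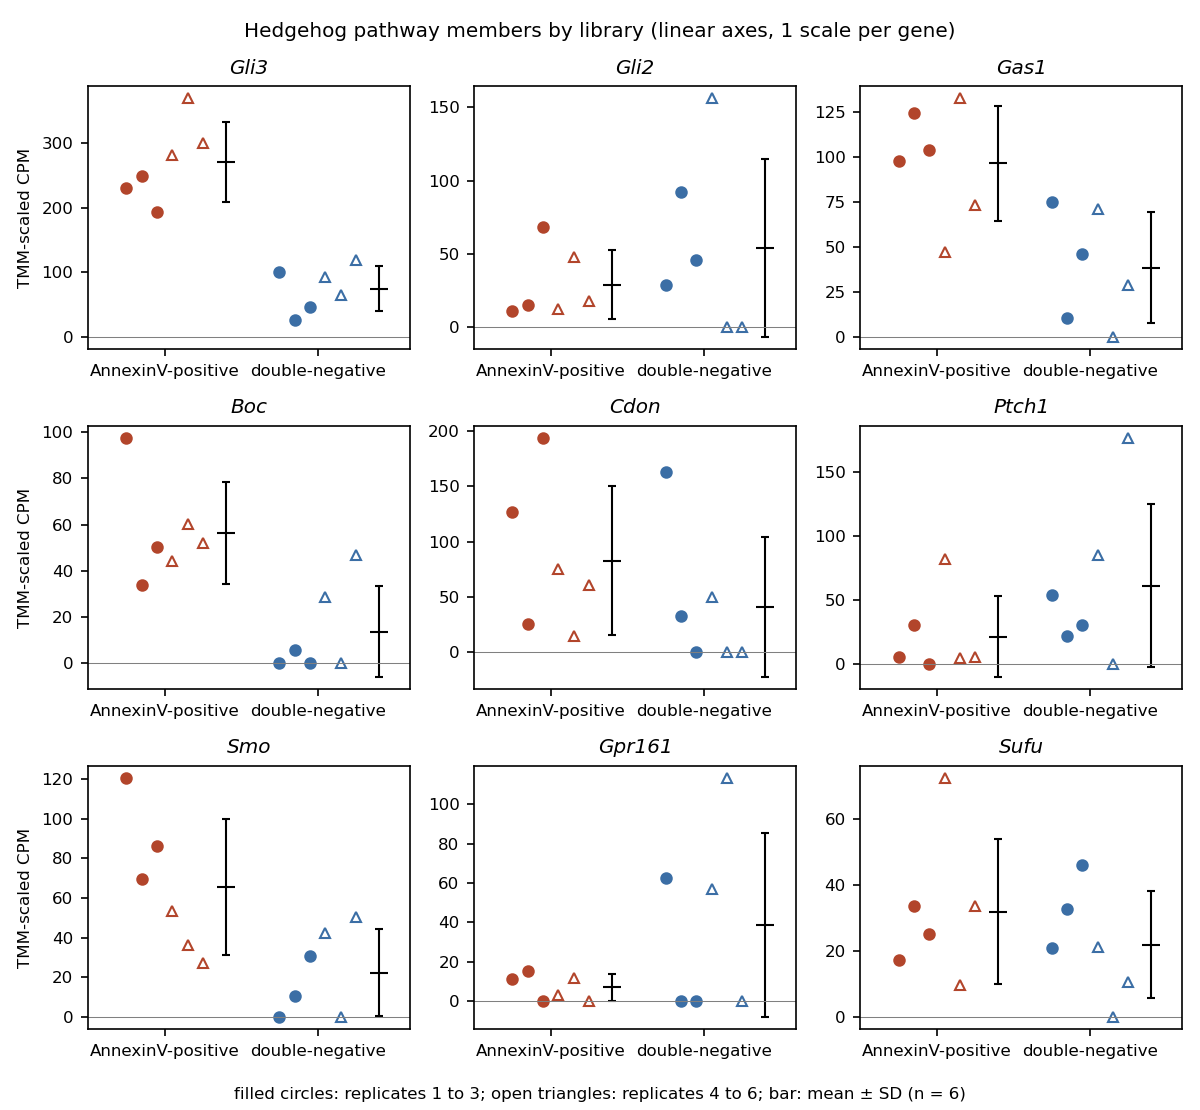
TMM-scaled CPM of the 9 members with counts, 1 point per library on linear axes with their own scale, AnnexinV-positive at the left and double-negative at the right of each panel, and the mean ± SD (n = 6) beside each group. Gli3 ranges from 193 to 369 CPM in AnnexinV-positive and from 27.2 to 119 CPM in double-negative libraries, and each of the other 8 members overlaps between the groups.

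Gli2, the main activator of the pathway in mice, did not share this pattern. It had 11.48, 15.5, 68.1, 12.6, 48.2 and 18.3 CPM in AnnexinV-positive libraries 1 to 6, against 29.2, 92.5, 46.1, 156, 0 and 0 CPM in double-negative libraries 1 to 6. The double-negative libraries held both the 2 highest Gli2 values and the 2 without any count, and the groups overlapped. The AnnexinV-positive libraries held 57 Gli2 counts and the double-negative libraries 49, and Gli2 did not pass the filter. Gli1, which is switched on when Hedgehog signalling is active, had 0 counts in all 12 libraries. With a limit of 3 counts, this allows up to 7.23 CPM where a library was deepest and 46.1 CPM where it was shallowest. Such limits cover counting error only. Gli3 made up 74.0% to 95.7% (median 94.2%) of the counts of the 3 Gli genes in AnnexinV-positive libraries and 22.7% to 100% (median 63.7%) in double-negative libraries. These shares overlapped: double-negative libraries 5 and 6, at 100%, had Gli3 as the sole Gli gene with counts, on 8 and 33 counts.

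The coreceptors Gas1, Boc and Cdon had higher means in AnnexinV-positive cells, with wide spread. Gas1 stood at 97.6, 124, 104, 47.3, 133 and 73.3 CPM in AnnexinV-positive libraries 1 to 6, against 75.0, 10.9, 46.1, 71.0, 0 and 28.8 CPM in double-negative libraries 1 to 6. All AnnexinV-positive libraries lay above the double-negative median of 37.4 CPM, but libraries 4 and 6 fell within the double-negative range. Its log2 fold change was 1.31 (SE 0.64).

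Boc was found in all 6 AnnexinV-positive libraries, at 97.6, 33.6, 50.1, 44.1, 60.3 and 51.9 CPM. In double-negative libraries 1 to 6 it had 0, 5.44, 0, 28.4, 0 and 46.7 CPM. Of the AnnexinV-positive libraries, 4 lay above the highest double-negative value, and 100 of its 118 counts were in that group. The log2 fold change of Boc was 1.86 (SE 0.87), a little above that of Gli3 but with an error more than 2 times as large.

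Cdon varied more than any shift between the groups. It had 126, 25.8, 193, 75.7, 14.5 and 61.1 CPM in AnnexinV-positive libraries 1 to 6, against 162, 32.7, 0, 49.7, 0 and 0 CPM in double-negative libraries 1 to 6. Double-negative library 1 alone held 39 of the 52 double-negative counts, and the log2 fold change was 0.90 (SE 0.85). Without double-negative library 1 it was 2.23. Without AnnexinV-positive libraries 1, 3 and 6, the ones with the most mesenchyme marker counts, the Cdon value changed sign to −0.16, whereas Gas1, Boc, Smo and Gli3 stayed at 1.38, 1.60, 1.23 and 1.95.

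Of the signal-transducing membrane proteins, Smo was higher on average and the receptor Ptch1 lower in AnnexinV-positive cells, and neither gene separated the groups. Smo stood at 121, 69.8, 85.97, 53.6, 36.2 and 27.5 CPM in AnnexinV-positive libraries 1 to 6, against 0, 10.9, 30.7, 42.6, 0 and 50.3 CPM in double-negative libraries 1 to 6. AnnexinV-positive libraries 5 and 6 lay within the double-negative range, and the log2 fold change was 1.52 (SE 0.81). Ptch1 was below the filter. It had 5.74, 31.0, 0, 81.97, 4.82 and 6.11 CPM in AnnexinV-positive libraries 1 to 6, against 54.2, 21.8, 30.7, 85.2, 0 and 176 CPM in double-negative libraries 1 to 6. In AnnexinV-positive libraries 5 of 6 lay below the double-negative median of 42.4 CPM, yet library 4 came close to the next to highest double-negative value, 85.2 CPM. AnnexinV-positive libraries held 43 counts and double-negative libraries 80, of which double-negative library 6 gave 49.

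The inhibitors Sufu and Gpr161 were the sparsest detected members, with 81 and 51 counts over all libraries. For Sufu the AnnexinV-positive mean was 31.9 ± 21.97 CPM and the double-negative mean 21.9 ± 16.2 CPM (SD, n = 6 each), with overlapping groups. For Gpr161 the AnnexinV-positive mean was 7.03 ± 6.79 CPM and the double-negative mean 38.8 ± 46.8 CPM (SD, n = 6 each). It reached 62.5, 56.8 and 113 CPM in double-negative libraries 1, 4 and 5 and had 0 counts in double-negative libraries 2, 3 and 6, whereas no AnnexinV-positive library exceeded 15.5 CPM. Both genes were below the filter, and no fold change is given for them.

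Across the table, edgeR's quasi-likelihood test called 71 of 3800 tested genes (1.87%) at a Benjamini-Hochberg adjusted p of 0.05, 15 of them (0.395%) higher and 56 (1.47%) lower in AnnexinV-positive cells. Gli3 was the 1 member among the 15, and 0 members were among the 56. No overlap between the groups with higher AnnexinV-positive values was found for 1.34% of tested genes and for 1 member. All 6 AnnexinV-positive libraries lay above the double-negative median for 17.9% of tested genes and for 4 members (Gli3, Gas1, Smo and Boc). The median log2 fold change was 1.52 over the 5 tested members and 0.06 over all tested genes. Since this comparison led to the choice of the members, and since a gene passes the filter more readily where it is high, nothing is read from these counts. With 1 library left out, the Gli3 fold change ran from 1.60 to 1.98. Without double-negative libraries 1 to 3, which held the haemoglobin counts, the log2 fold changes were 1.50 for Gli3, 1.499 for Gas1, 1.02 for Boc, 0.96 for Smo and 2.37 for Cdon.

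Whether the difference between the sort groups was alike in replicates 1 to 3 and 4 to 6 was tested as an interaction, which had not been used to choose the genes. Gli3 had log2 fold changes of 1.88 in the first set and 1.71 in the other, and the difference of differences was −0.13 (SE 0.70, adjusted p = 0.998 in edgeR). Gli3 averaged 224 ± 27.8 CPM in AnnexinV-positive libraries 1 to 3 against 57.8 ± 37.8 CPM in double-negative libraries 1 to 3, and 316 ± 46.5 CPM in AnnexinV-positive libraries 4 to 6 against 91.9 ± 26.95 CPM in double-negative libraries 4 to 6 (SD, n = 3 each).

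For Boc and Smo the replicate sets stood further apart. Boc had log2 fold changes of 4.52 and 0.92 within replicates 1 to 3 and 4 to 6 (difference −3.58, SE 1.89, adjusted p = 0.850 in edgeR). Smo had 3.11 and 0.24 (difference −2.81, SE 1.67, adjusted p = 0.884 in edgeR). Neither difference passed, nor did those of Gas1 (0.04, SE 1.22) and Cdon (0.99, SE 1.70), both with adjusted p = 0.998 in edgeR. Over all genes the interaction passed for 3 of 3800 (0.0789%) and had a raw p under 0.05 for 239 in edgeR, with 0 of the 5 tested members in either count. DESeq2 was not run on the interaction. The size of the standard errors leaves room for differences of several-fold.

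**Figure D2:**
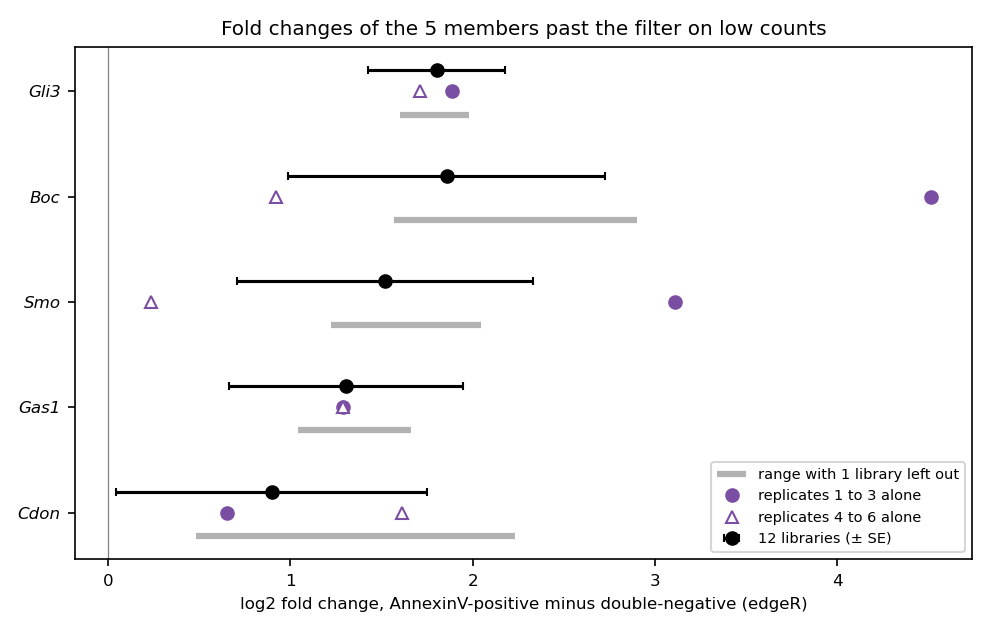
Log2 fold change, AnnexinV-positive minus double-negative, of the 5 tested members: all 12 libraries (black, ± SE), replicates 1 to 3 alone (filled purple), replicates 4 to 6 alone (open purple) and the range when 1 library is left out (grey). Gli3 lies at 1.88 and 1.71 in the replicate sets, whereas Boc lies at 4.52 and 0.92.

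Levels of different genes were compared per 1000 bases of annotated exon. In AnnexinV-positive cells the order was led by Gas1 (32.6 ± 10.8 CPM per 1000 bases) and Gli3 (28.2 ± 6.38), whose means differed by less than their SD. A gap larger than the SD separated Gli3 from Boc (12.6 ± 4.96), and Boc, Smo (11.7 ± 6.12), Cdon (10.7 ± 8.71), Gli2 (4.23 ± 3.42) and Sufu (4.15 ± 2.86) each differed from the next by less than the larger SD. Ptch1 (1.52 ± 2.22) and Gpr161 (1.01 ± 0.98) closed the detected members (CPM per 1000 bases, SD, n = 6).

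In double-negative cells the order was flatter. Gas1 was again the highest (13.04 ± 10.4 CPM per 1000 bases), followed by Gli2 (7.86 ± 8.84) and Gli3 (7.80 ± 3.63), then Gpr161 (5.57 ± 6.72), Cdon (5.29 ± 8.19), Ptch1 (4.32 ± 4.47), Smo (3.99 ± 3.89), Boc (3.02 ± 4.42) and Sufu (2.85 ± 2.10, SD, n = 6 for each). No 2 neighbours among these 9 differed by more than the larger of their SDs. In this group Gli2 and Gli3 thus stood at nearly the same level per exon length, on 49 and 86 counts. In the authors' second table, named TPM, Gas1 ranked 2 in AnnexinV-positive and 5 in double-negative cells, and Sufu ranked 1 in double-negative cells in place of 9. Gli3 ranked 1 in place of 2 in AnnexinV-positive cells and 3 in double-negative cells, as by counts per exon length.

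**Figure D3:**
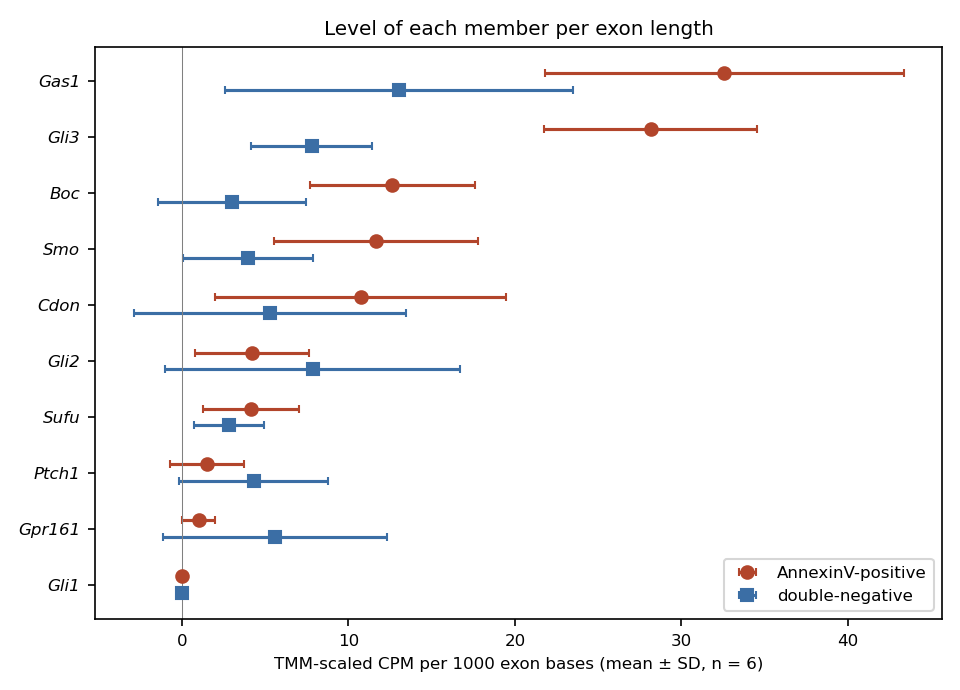
Mean ± SD (n = 6) of TMM-scaled CPM per 1000 exon bases for the 10 members, ordered by the AnnexinV-positive mean. Gas1 (32.6) and Gli3 (28.2) stand apart at the top in AnnexinV-positive cells, whereas the double-negative means run from 0 to 13.04.

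Summed levels of progenitor and neuron markers also differed between the groups. The summed level of 17 progenitor markers was 4124 to 4974 CPM over AnnexinV-positive libraries, against 1044 to 2794 CPM over double-negative libraries. That of 13 neuron markers was 318 to 970.1 CPM over AnnexinV-positive libraries, against 1817 to 4315 CPM over double-negative libraries. Neither sum overlapped between the groups. Of 15 tested progenitor markers 4 were called higher (Ccnd2, Mki67, Hmga2 and Notch2) and 0 lower. Of 9 tested neuron markers 0 were called higher and 5 lower (Dcx, Stmn2, Ina, Map2 and Elavl3). Over all tested genes 0.395% were called higher and 1.47% lower. Both lists were drawn up with earlier results of these libraries known. Without double-negative libraries 1 to 3, 2 progenitor markers (Ccnd2 and Mki67) and 3 neuron markers (Dcx, Ina and Stmn2) were called. Without AnnexinV-positive libraries 1, 3 and 6 these counts were 1 (Ccnd2) and 3 (Dcx, Map2 and Stmn2). Of the 15 tested progenitor markers 12 had a positive sign. The transcription factors Sox9 (0.42, SE 0.35) and Hes5 (1.53, SE 0.72) were among these, with adjusted p = 0.619 and 0.297 in edgeR. The transcription factors Sox2 (−0.50, SE 0.40), Sox1 (−0.05, SE 0.56) and Pax6 (−0.03, SE 0.53) had negative signs, with adjusted p = 0.592, 0.980 and 0.988 in edgeR. For Sox2, 0 of the 6 AnnexinV-positive values exceeded the median of the double-negative ones. Among double-negative libraries, numbers 6, 1 and 4 had the highest Gli3 values (119, 99.99 and 92.3 CPM). Their progenitor sums were 2794, 1937 and 2761 CPM, against 1703, 1275 and 1044 CPM in double-negative libraries 2, 3 and 5. Their neuron sums were 2197, 4291 and 1817 CPM, against 2601, 3839 and 4315 CPM in double-negative libraries 2, 3 and 5. The part of these markers in the Gli3 difference was not tested.

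**Figure D4:**
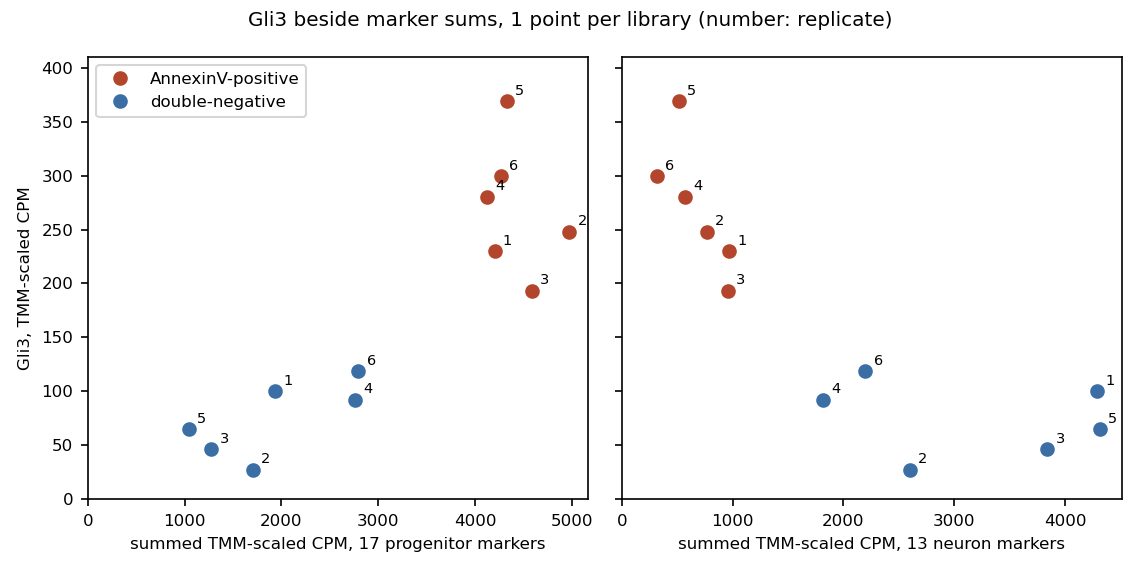
Gli3 in TMM-scaled CPM (vertical) against the summed TMM-scaled CPM of 17 progenitor markers (left) and 13 neuron markers (right), 1 point per library with its replicate number. AnnexinV-positive libraries lie at 4124 to 4974 CPM on the progenitor sum, all above the double-negative range of 1044 to 2794 CPM.

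Markers of tissue outside the neural lineage had counts in some AnnexinV-positive libraries. Vessel markers (8 genes) had 0 counts in all 6 double-negative libraries, and summed to between 0 and 379 CPM in AnnexinV-positive libraries, with 0 in libraries 2 and 4. Macrophage markers reached 425 CPM in AnnexinV-positive library 1 and 91.7 CPM in double-negative library 1, and C1qa was at 0 throughout. Of the mesenchyme markers, Dcn was at 0 throughout, and Prrx1, the 1 tested gene, had 1.84 (SE 0.98, adjusted p = 0.373 in edgeR). Gli3 was at 248, 281 and 369 CPM in AnnexinV-positive libraries 2, 4 and 5, where the mesenchyme sum did not exceed 50.6 CPM, and at 229.6, 193 and 299 CPM in libraries 1, 3 and 6, where it was 534 CPM or more.

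The ligands of the pathway were close to absent. Shh had 2 counts, both in AnnexinV-positive library 4, and Ihh and Dhh had 0 counts in all libraries. Of 9 genes for ligands and their release 0 passed the filter, and their summed level was 0 to 60.9 CPM (median 12.4) in AnnexinV-positive libraries, against 15.4 to 113 CPM (median 76.7) in double-negative libraries. Disp1, which releases lipid-bearing ligand from producing cells, had 4 counts in AnnexinV-positive libraries against 23 in double-negative ones. Disp2, Scube3 and Scube1 had 6, 9 and 5 counts in AnnexinV-positive libraries against 18, 16 and 15 in double-negative ones. Hhat, of the same list, went the other way, with 16 counts in AnnexinV-positive libraries against 1 in double-negative ones. Of 6 further receptors and ligand binders 0 passed the filter. Their summed level was 9.46 to 244 CPM (median 105) in AnnexinV-positive libraries, against 30.7 to 163 CPM (median 96.5) in double-negative libraries. Hhip, which binds ligand and is switched on by the pathway, had 0 counts in all 12 libraries. Gpc3, a glypican that binds ligand at the cell surface, had 75 counts in 4 AnnexinV-positive libraries and 0 in double-negative libraries. The glypican gene Gpc4 had 95 counts in AnnexinV-positive libraries against 41 in double-negative ones. Gpc6 went the other way, with 32 against 64. These counts are not scaled for depth.

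Kinases, ubiquitin ligase subunits and other genes that act on Gli processing went both ways. Of 24 such genes 14 were tested, 6 had a positive sign, and 0 passed in either direction (median log2 fold change −0.20). The smallest p belonged to Prkar1a, the regulatory subunit of protein kinase A, with an AnnexinV-positive mean of 242 ± 109 CPM and a double-negative mean of 522 ± 273 CPM (SD, n = 6 each; log2 fold change −1.09, SE 0.34, adjusted p = 0.0958 in edgeR). Prkar1a passed in 2 of 29 alternative fits, with DESeq2 (adjusted p = 0.0458) and in edgeR without AnnexinV-positive library 3 (adjusted p = 0.0466). Csnk1e, a casein kinase 1, followed with −0.91 (SE 0.42, adjusted p = 0.289 in edgeR). Kif7, a ciliary kinesin that acts on Gli proteins, had 0 counts in all 12 libraries. Of 34 genes of the cilium 4 were tested and 0 passed, among them the retrograde motor gene Dync2h1 (−0.70, SE 0.77, adjusted p = 0.710) and the transition zone gene Cep290 (0.51, SE 0.69, adjusted p = 0.770 in edgeR). Cep290 changed sign to −0.10 without double-negative libraries 1 to 3.

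Among 16 genes reported as targets of Hedgehog signalling or of Gli3, 4 were tested, all with a positive sign. Of these, 1 was called higher (Ccnd2, also 1 of the progenitor markers above), against 0.395% of all tested genes. This list was drawn up with earlier results of these libraries known. Ccnd2 (cyclin D2) had an AnnexinV-positive mean of 710.1 ± 199.8 CPM and a double-negative mean of 215 ± 86.7 CPM (SD, n = 6 each; log2 fold change 1.70, SE 0.30, adjusted p = 0.00214 in edgeR). Its call was lost in 2 of 29 alternative fits, within replicates 4 to 6 (adjusted p = 0.115 in edgeR) and with limma on the TPM table at a pseudocount of 0.1 (adjusted p = 0.0758). Ccnd1 (cyclin D1) had an AnnexinV-positive mean of 185 ± 56.9 CPM and a double-negative mean of 40.3 ± 48.3 CPM (SD, n = 6 each; log2 fold change 2.06, SE 0.58, adjusted p = 0.0648 in edgeR), and it passed in 9 of 29 alternative fits. Without double-negative libraries 1 to 3, Ccnd2 had 1.896 and Ccnd1 1.45. Cdk6 and Mycn had 1.27 (SE 0.60) and 1.09 (SE 0.52), with adjusted p = 0.318 and 0.298 in edgeR. All 4 are known for roles in cell proliferation. The ventral targets Foxa2, Nkx2-2, Nkx6-1 and Nkx6-2, together with Foxf1, had 0 counts in all libraries.

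Of 18 genes of dorsal telencephalic patterning 5 were tested, 2 with a positive sign, and 1 was called lower, against 1.47% of all tested genes. Lhx9, a LIM homeobox gene, had an AnnexinV-positive mean of 25.0 ± 31.7 CPM and a double-negative mean of 185 ± 178 CPM (SD, n = 6 each; log2 fold change −2.997, SE 0.77, adjusted p = 0.0350 in edgeR). Its call was lost in 18 of 29 alternative fits, with adjusted p from 0.000750 to 0.546. Emx2, Lhx2 and Pax6 had 0.52, 0.63 and −0.03. Wnt3a, of the cortical hem, and Fgf8 had 0 counts in all libraries. Of the related zinc finger genes Glis1 to Glis3 and Zic1 to Zic5, 0 of 8 passed the filter. Over all 7 lists, 27 of 113 genes outside the members were tested, with 13 positive signs. Their median was −0.03, against 0.06 over all tested genes. Of the 27, 1 was called higher and 1 lower, against 0.395% and 1.47% of all tested genes.

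**Figure D5:**
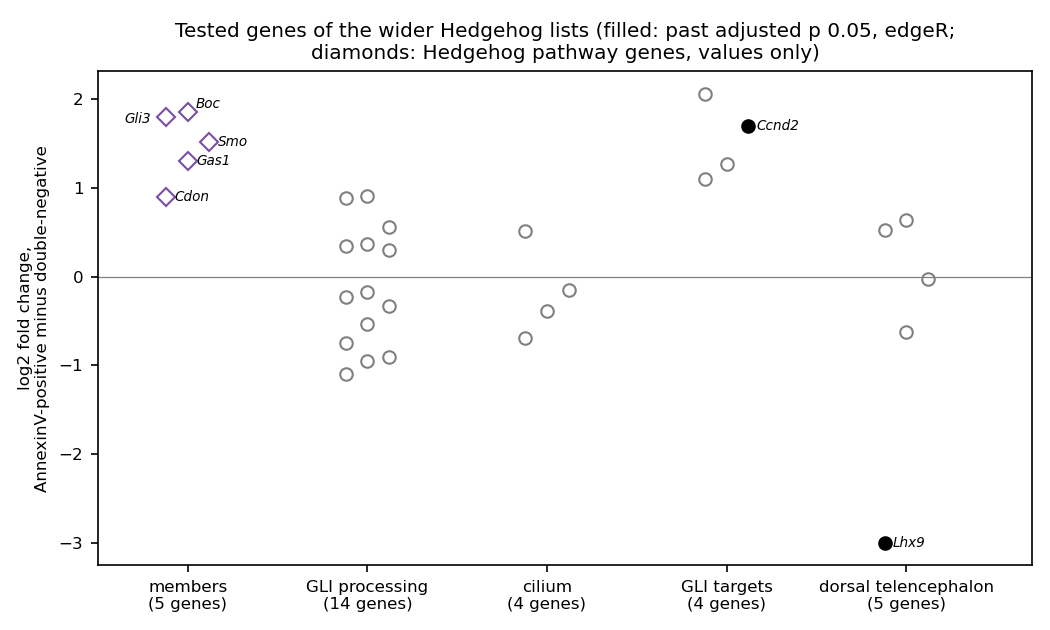
Log2 fold change, AnnexinV-positive minus double-negative, of the 5 Hedgehog pathway genes past the filter (diamonds, values only) and of the tested genes of the wider lists (circles, filled where past an adjusted p of 0.05 in edgeR). Ccnd2 (1.70) and Lhx9 (−2.997) are the filled points, and the 14 Gli processing genes lie on both sides of 0.

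The genes whose pattern was most like that of Gli3 were Gcsh, Hspd1, Tnfrsf19, Ro60 and Ergic1, with Pearson correlations of log2 CPM of 0.92, 0.92, 0.91, 0.90 and 0.90 over the 12 libraries. Within the groups, after group means were removed, these correlations were 0.66, 0.69, 0.79, 0.78 and 0.71. Of the members, Boc (0.80), Gas1 (0.69), Smo (0.55) and Cdon (0.38) were less like Gli3 over the 12 libraries, and within the groups they had 0.42, 0.36, −0.03 and −0.08. The points share library depth and the sort group, and the 5 genes are the top of 3800, so these values are a description.

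On GRCm38 (GENCODE M21), Gli3 is a protein-coding gene on the plus strand of chromosome 13 at 15463235 to 15730026, with 9589 exon bases. Of these, 188 are shared with Gm6556 on the other strand, which had 6 counts in all. Ptch1 (63508328 to 63573598) and Gas1 (60174405 to 60177365) lie on the minus strand of the same chromosome. Of the 2961 exon bases of Gas1, 589 are shared with Gm48488 on the other strand. Boc lies on chromosome 16 at 44485049 to 44558897, Smo on chromosome 6 at 29735503 to 29761365, and Cdon on chromosome 9 at 35421128 to 35507652. Gli2 lies on chromosome 1 at 118834132 to 119053619 and Gpr161 on the same chromosome at 165295789 to 165326745. Gli1 lies on chromosome 10 at 127329882 to 127341974 and Sufu on chromosome 19 at 46396896 to 46488804. Gli1 shares 327 of its 4995 exon bases with Arhgap9 and Gm47200 on the other strand.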

How the data were processed

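Of the nonzero values in the deposited count table, 8.84% were not whole, so its values were treated as estimated counts and rounded; all values of the 10 members were whole. The authors' second table, named TPM, has columns that sum to 764764 to 1835685, so each value was handled as a score rather than as transcripts of a set sum. The tools Trimmomatic, STAR, featureCounts and Seurat 4 and the builds GRCm38 and mm10 appear, per the submitters' processing notes, with no role or order. No source used here gives the annotation or strand setting, so antisense partners cannot be separated. Genes were kept by filterByExpr at a minimum count of 10 and a minimum total of 15. The 3800 left were scaled by TMM and tested with a robust quasi-likelihood fit of edgeR 4.0.16 in R 4.3.3, whose model held the sort group alone. Tests were two-sided, and p-values were adjusted by Benjamini-Hochberg with a threshold of 0.05. SE is the log2 fold change over the square root of F. CPM uses TMM-scaled sums of the counts of the 3800 tested genes, not the library totals. Log2 CPM used a prior count of 2. The fit was tested on 3 simulated data sets. Alternatives used DESeq2 1.42.0 and limma 3.58.1, other scalings and filters, and fewer libraries. Named were the members, every called gene of the 7 wider lists with the 2 smallest p of each, and the 5 genes most like Gli3. Of these, 1 gene is not reported here. The members and lists were chosen with earlier results of these data known. Of 205 symbols all matched, Skp1 as Skp1a.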

Additional observations from a re-analysis of the deposited data

Results flagged for a closer look

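Of 18 sets of 6 values looked at (9 members with counts in 2 groups), 1 held a library far from the others: Cdon in double-negative library 1, at 162 CPM where the next highest library of that group had 49.7 CPM. The gap was 0.69 of the whole range, above Dixon's 95% critical value for 6 samples. Chance marks about 1 in 20 sets where values are normally distributed. Cdon had counts in only 3 of these 6 libraries, so that rate need not hold here.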

How the results depend on the processing

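The number of called genes was 71 and moved by more than 1.5 times in several alternatives: 237 with no filter, 185 with DESeq2, 32 and 9 with limma on the authors' TPM table (pseudocounts of 1 and 0.1), 21 within replicates 4 to 6, 42 when double-negative libraries 1 to 3 were dropped, 13 when double-negative libraries 3 and 5 were, and 18 when AnnexinV-positive libraries 1, 3 and 6 were (an alternative chosen after seeing the data). Leaving out 1 library gave 46 (without double-negative library 3) to 117 (without double-negative library 4). With upper-quartile scaling 42 genes were higher and 55 lower, and with unscaled sums over the tested genes 52 and 32, in place of 15 and 56. These moved the median of all tested genes to 0.14 and 0.28, and limma on the TPM table to 0.42 and 0.51. The values of Gli3 are a description, since its call led to its choice. Its fold change was positive in 29 of 29 alternatives and not past the threshold in 7 of them: within replicates 1 to 3 (1.88), within replicates 4 to 6 (1.71), when double-negative libraries 1 to 3 (1.50), double-negative libraries 3 and 5 (1.62) or AnnexinV-positive libraries 1, 3 and 6 (1.95) were dropped, and with limma on the TPM table (1.81 and 1.91); fewer libraries entered the first 5, and the cause for the last 2 was not tested. Gas1, Smo and Boc kept a positive sign in all alternatives that gave a value, and Cdon was at −0.16 without AnnexinV-positive libraries 1, 3 and 6.

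The interaction changed sign for Gli3 (−0.98 to 0.24), Gas1 (−0.83 to 0.98) and Cdon (−0.82 to 6.01) with 1 library left out, and for Gas1 with upper-quartile scaling (−0.029), none of them past the threshold. Called wider Hedgehog genes numbered 2, against 5 with no filter (Ccnd1, Ccnd2, Cdk6, Gpc3 and Lhx9), and 1 (Ccnd2) after each of these 3 removals of libraries. Cep290 was at −0.10 without double-negative libraries 1 to 3. Gli3 ranked 1 in place of 2 in AnnexinV-positive cells on the TPM table. Same-numbered libraries of the groups had correlations of −0.01 to 0.08, 0 of 6 pairs over 0.1 and 2 of 6 best with their own number. The libraries are shallow, so these values cannot tell whether same-numbered libraries share an embryo or litter. With the replicate number as a block, 71 genes were called, 56 of them shared with the fit without it, and Gli3 had 1.91. Depth limits all members, and Gli1, Gli2, Ptch1, Sufu and Gpr161 did not pass the filter and have no fold change.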

Other observations

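Of the pathway genes outside the comparison, several below the filter had most of their counts in one group. Some were still found in as many libraries of each group, 6 for Btrc and 5 for Tulp3 and Wnt7b. Tulp3, which carries receptors into the cilium, had 93 counts in AnnexinV-positive libraries against 21 in double-negative ones, Rab23, a small GTPase that restrains the pathway in mice, had 49 and 13, and Lef1, of WNT signalling, had 87 and 18. Btrc, of the ubiquitin ligase that starts Gli3 processing, had 25 and 58, and Wnt7b had 22 and 54. The zinc finger gene Zic1 had 86 and 18. Wnt8b, of the medial pallium and hem, had 49 and 1, in 3 and 1 libraries. These genes were picked after their counts were seen, and the counts are not scaled for depth. The 9 hem and choroid plexus markers, Wnt8b among them, summed to 0 to 229 CPM (median 40.0) in AnnexinV-positive libraries. In double-negative libraries they summed to 0 to 298 CPM (median 41.2).

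In the authors' TPM table the value per count was not fixed within a gene. Relative to Gli3 in the same library, a count of Sufu was worth 8.40 times its median over 11 libraries in double-negative library 3, where 3 counts gave a value of 178, and a count of Gli2 was worth 4.66 times its median over 10 libraries in AnnexinV-positive library 4. Sufu thereby ranked 1 of 10 members in double-negative cells on that table, against 9 by counts per exon length.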
